A study of Mus musculus with 2 samples.

Results

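Chromatin accessibility around 10 genes of the bone morphogenetic protein (BMP) pathway was compared in basal cells of mouse epidermis after ablation of basal lineage cells and in control epidermis. The genes were the ligands Bmp2, Bmp4 and Bmp7, the receptors Bmpr1a and Bmpr2, the inhibitors Smad6 and Bambi, and the targets Id1, Id2 and Id3. A peak was counted for a gene when it overlapped the gene, or when that gene was the nearest protein-coding gene within 50 kb. This rule took 95 of 84594 distinct peaks, none of which overlapped a second protein-coding gene. Accessibility was measured by ATAC-seq, in which a transposase inserts adapters into open DNA. There was 1 library from epidermis labelled as basal lineage ablation and 1 library from epidermis labelled WT. Each library was made from 50000 sorted cells with high α6 integrin, no CD34, no Lrig1 and the reporters YFP, GFP and RFP; the titles name K14, a keratin of basal keratinocytes. The labels used here give no strain, age, time after ablation, agent of ablation or number of animals for either library.

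BMP ligands are secreted dimers that bring together type I and type II receptor kinases. The type I receptor phosphorylates SMAD proteins, which enter the nucleus with SMAD4 and bind target genes. The Id genes are direct targets in many cell types; their products are helix-loop-helix proteins that lack a DNA-binding region and hold back E proteins, and Smad6 and Bambi are targets that feed back on the pathway. In skin, BMP signalling is known for keeping hair follicle stem cells at rest and for its part in keratinocyte differentiation.

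The libraries differed in depth and in their mitochondrial share. Reads in nuclear peaks came to 12463908 in ablation and 17056996 in control, while mitochondrial peaks held 31.2% of the reads in peaks in ablation and 7.31% in control. The 95 peaks together held 17383 reads in ablation and 24947 in control. The deposited values are normalized reads, that is, reads divided by 1 factor per library. With 1 library per group there was no replicate spread and no test, so a difference is described by its size, here 2-fold, and by a 95% Clopper-Pearson interval of its ratio. Such an interval reflects the number of reads alone: it treats PCR duplicates as separate molecules and holds no variation between animals or preparations. In sorted bulk cells, fewer cells with an open region and less opening per cell cannot be told apart.

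Promoter sequences are shown for 5 genes, since the peaks at gene starts are set against the other peaks of each locus in the results. They are the 250 bases before the gene start, 5′ to 3′ on the gene's strand, from RefSeq with build GRCm38.p6, the assembly behind mm10. Capitals mark GGCGCC, a GC-rich palindrome bound by SMAD1 and SMAD5, or GTCTG, the SMAD box, which appears as CAGAC where it lies on the other strand.
Bmp4, chr14:46390670-46390919, minus strand: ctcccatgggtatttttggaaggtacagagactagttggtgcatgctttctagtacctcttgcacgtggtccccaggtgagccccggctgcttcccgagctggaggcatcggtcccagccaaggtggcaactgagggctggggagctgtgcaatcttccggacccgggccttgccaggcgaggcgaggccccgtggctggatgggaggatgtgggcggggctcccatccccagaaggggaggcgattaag
Bmpr2, chr1:59764029-59764278, plus strand: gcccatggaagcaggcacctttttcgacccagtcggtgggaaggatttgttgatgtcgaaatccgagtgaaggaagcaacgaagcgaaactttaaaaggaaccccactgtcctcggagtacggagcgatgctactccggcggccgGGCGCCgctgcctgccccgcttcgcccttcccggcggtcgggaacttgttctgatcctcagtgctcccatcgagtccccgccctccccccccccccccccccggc
Smad6, chr9:64022060-64022309, minus strand: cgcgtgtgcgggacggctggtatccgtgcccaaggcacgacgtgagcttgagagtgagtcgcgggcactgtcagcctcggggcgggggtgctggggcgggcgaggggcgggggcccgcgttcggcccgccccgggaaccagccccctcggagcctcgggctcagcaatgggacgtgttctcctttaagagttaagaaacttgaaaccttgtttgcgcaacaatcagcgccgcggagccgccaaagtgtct
Id2, chr12:25096093-25096342, minus strand: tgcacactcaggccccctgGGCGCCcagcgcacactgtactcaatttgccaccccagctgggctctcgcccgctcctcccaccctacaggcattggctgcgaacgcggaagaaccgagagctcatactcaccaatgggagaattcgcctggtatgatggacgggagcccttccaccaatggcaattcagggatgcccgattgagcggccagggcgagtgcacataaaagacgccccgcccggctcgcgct
Id3, chr4:136143572-136143821, plus strand: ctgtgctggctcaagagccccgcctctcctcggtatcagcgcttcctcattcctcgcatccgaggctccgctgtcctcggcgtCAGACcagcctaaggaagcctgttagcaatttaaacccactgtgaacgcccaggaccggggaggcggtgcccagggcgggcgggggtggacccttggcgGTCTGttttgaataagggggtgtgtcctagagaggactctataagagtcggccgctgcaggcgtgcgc

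RefSeq promoters matched 6 of the 10 genes, these 5 and Bmpr1a. The 250 bases lay wholly inside a peak for Bmp4, Bmpr1a, Smad6, Id2 and Id3. For Bmpr2, 107 of them lay in a peak, and the gene start itself fell between 2 peaks. GGCGCC was found in 3 of the 6 promoters, at -198 to -193 in Bmpr1a, -105 to -100 in Bmpr2 and -231 to -226 in Id2, with -1 as the last base before the gene start, against 9.59% of 32851 RefSeq promoters of the same length. GTCTG was found in 1 of the 6, at -167 to -163 and -68 to -64 of Id3, against 42.2% of all promoters. TGANTCA, the AP-1 site, was in 0 of the 6 and in 6.75% of all promoters. Both strands were searched and the matches did not overlap. The 6 promoters were 62.8% to 78.8% G and C, where the median promoter was 52.4%. A match is a string of letters and was not set against any binding data.

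Of the 95 peaks, 88 had a mean signal of at least 13.96 normalized reads, the 10th percentile of nuclear peaks, and were compared. The log2 ratio of ablation to control, with a pseudocount of 1, had a median of -0.08 over these 88 peaks and of -0.01 over all 76147 compared peaks. It was above 0 in 37 of the 88 peaks (42.0%), where 48.7% of all compared peaks were above 0. Summed over its peaks, 3 of the 10 genes had a ratio above the median of all 16268 genes with a compared peak, which by construction 50.0% exceed; with gene-end peaks alone the count was 6. That median was a log2 ratio of -0.07. In order from the highest ratio stood Smad6, Bmp2, Bmp7, Bambi, Id3, Bmpr1a, Id2, Bmpr2, Bmp4 and Id1, and the counting intervals of every pair of neighbours in this order overlapped. The 10 genes thus formed a continuous range, with Id1 at its low end.

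**Figure D1:**
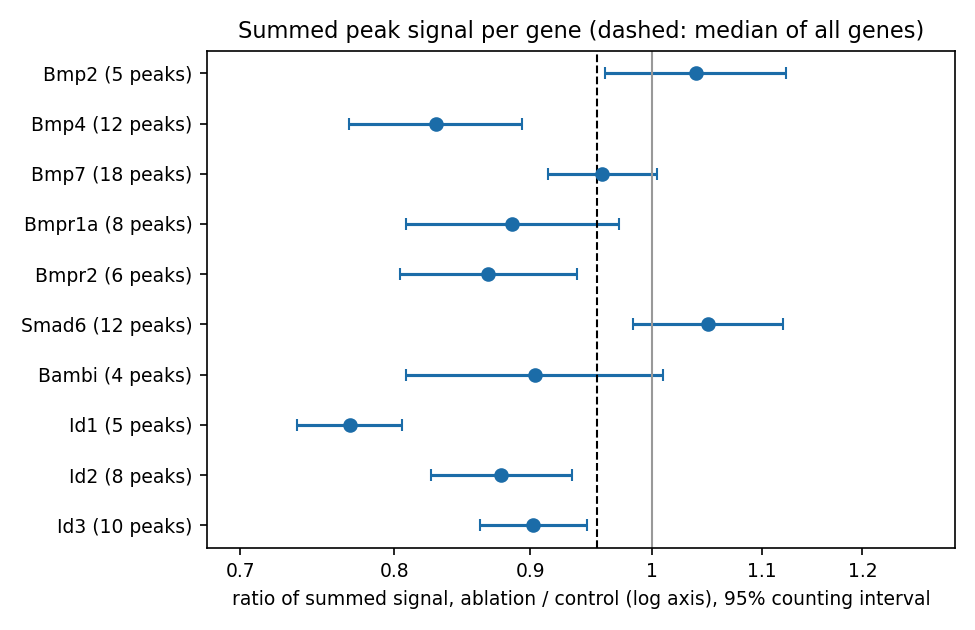
Ratio of summed peak signal of ablation to control for each gene, on a log axis, with 95% counting intervals (1 library per group). Id1 lies lowest at 0.769, and the intervals of Smad6 at 1.05, Bmp2 at 1.04, Bmp7 at 0.958 and Bambi at 0.903 include 1.

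The 3 ligand genes differed among themselves. Bmp4, one of the ligands with effects on hair follicles, had a summed signal of 1039 normalized reads in ablation and 1253 in control over 12 peaks, a ratio of 0.829 (0.769 to 0.894). Bmp2, a close relative of Bmp4, had 1046 in ablation and 1007 in control over 5 peaks, a ratio of 1.04 (0.960 to 1.12). Bmp7, a ligand of another subgroup, had 2741 in ablation and 2862 in control over 18 peaks, a ratio of 0.958 (0.913 to 1.00). The interval of Bmp4 lay below those of Bmp2 and Bmp7.

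The lower signal of Bmp4 was shared by its 3 strong peaks. The peak over the gene start (chromosome 14, 46390236 to 46391115) held 359 normalized reads in ablation and 471 in control, a ratio of 0.762 (0.671 to 0.864). The peak inside the gene (46387105 to 46387783) held 258 and 318, a ratio of 0.809 (0.695 to 0.941), and the peak 7433 bp beyond the start side (46398102 to 46398937) held 210 in ablation and 263 in control, a ratio of 0.802 (0.677 to 0.947). All 3 were lower in ablation by similar ratios. The other 9 compared peaks of Bmp4 were weak, with 12 to 48 reads in ablation and 12 to 60 in control, and they scattered to both sides. Among them were the highest and the lowest ratio of all 88 peaks. The peak 1666 bp from the gene (46381601 to 46381859) held 26 reads in ablation and 12 in control, which is 23.6 and 8.47 normalized reads, a ratio of 2.78 (1.36 to 6.06). The peak 28797 bp away (46419466 to 46419849) held 19 reads in ablation and 60 in control, a ratio of 0.407 (0.229 to 0.692). Another weak peak, 48905 bp away, held 37.2 normalized reads in ablation and 20.5 in control, a log2 ratio of 0.83.

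Bmp2 was nearly level at its lower-coordinate end. The peak there (chromosome 2, 133552048 to 133553362), the strongest of the gene, held 395 normalized reads in ablation and 382 in control, a ratio of 1.03 (0.907 to 1.17). The peak inside the gene held 256 in ablation and 229 in control, and the one 1339 bp beyond its other end 288 in ablation and 314 in control. A peak 1381 bp before the lower-coordinate end held 86.2 in ablation and 62.1 in control, a ratio of 1.39 (1.03 to 1.88).

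The peaks of Bmp7 differed in direction along the locus. A group of 3 strong peaks 39915 to 45810 bp from the gene was lower in ablation. The furthest (chromosome 2, 172821763 to 172822202) held 259 normalized reads in ablation and 370.5 in control, a log2 ratio of -0.51. The next (172824415 to 172824976) held 343 in ablation and 419 in control, a ratio of 0.818 (0.717 to 0.932), and the nearest (172827512 to 172828097) 291 in ablation and 382 in control, a ratio of 0.763 (0.662 to 0.877). In their signal decile, 3.55%, 19.6% and 9.30% of compared peaks had ratios as low, in the order named. A weaker peak beside this group, 36639 bp from the gene, was higher, with 49.9 in ablation and 31.8 in control, a ratio of 1.57 (1.04 to 2.38). Weak peaks 28276, 26341 and 13337 bp away had intervals that include 1. The broadest and strongest peak of the locus was 2550 bp long and 4022 bp from the gene (172861441 to 172863990). It held 578 in ablation and 478 in control, a ratio of 1.21 (1.08 to 1.35). Of compared peaks in the same signal decile, 98.9% had a ratio no higher than this one. The peak over its higher-coordinate end (172939829 to 172940850) held 518 in ablation and 532 in control, a ratio of 0.973 (0.872 to 1.09). Inside the gene, 1 weak peak (172922698 to 172922856) was at least 2-fold lower, with 12 reads in ablation and 35 in control, a ratio of 0.441 (0.208 to 0.869). Another weak peak (172883200 to 172883749) held 14.5 in ablation and 28.2 in control, a ratio of 0.514 (0.269 to 0.939). A peak further along the gene (172913957 to 172914654) held 58.0 in ablation and 32.5 in control, a ratio of 1.79 (1.21 to 2.67). The near sum of Bmp7 in the 2 libraries was thus made of peaks that differed both ways.

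The 2 receptor genes had lower summed signal in ablation, where 38.4% of all genes with a compared peak had a log2 ratio above 0. Bmpr1a, a type I receptor kinase, had 707 normalized reads in ablation and 797 in control over 8 peaks, a ratio of 0.886 (0.808 to 0.972). Bmpr2, the type II receptor, had 1010.4 in ablation and 1164 in control over 6 peaks, a ratio of 0.868 (0.804 to 0.937). A ratio as low as that of Bmpr1a was seen in 29.2% of all genes with a compared peak, and one as low as that of Bmpr2 in 23.7%. In Bmpr1a the lowest ratios were those of peaks inside the gene. The peak at the start (chromosome 14, 34502140 to 34503331) held 309 in ablation and 337 in control, a ratio of 0.919 (0.797 to 1.06). Of 2 neighbouring peaks in the gene body, the first (34464493 to 34464999) held 37.2 in ablation and 69.2 in control, a ratio of 0.538 (0.364 to 0.782), and the second (34467489 to 34468153) 107 in ablation and 145 in control, a ratio of 0.740 (0.585 to 0.932). A weak peak in the gene (34492701 to 34493004) held 25.4 in ablation and 14.1 in control, with an interval that includes 1 (0.978 to 3.37). In Bmpr2 the peak before the gene start (chromosome 1, 59762103 to 59764135) held 583 in ablation and 680.3 in control, a ratio of 0.857 (0.775 to 0.948). Of compared peaks in its signal decile, 39.9% had a ratio as low. The peak just inside the gene held 94.3 in ablation and 119 in control, a ratio of 0.791 (0.613 to 1.02).

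Of the inhibitor genes, Smad6 was close to level in sum and Bambi was lower in ablation, with an interval that reached 1. Smad6, an inhibitory SMAD, had 1532 normalized reads in ablation and 1459 in control over 12 peaks, a ratio of 1.05 (0.984 to 1.12). Its gene-start peak (chromosome 9, 64021888 to 64023371) held 653 in ablation and 661 in control, a ratio of 0.988 (0.895 to 1.09). A peak in the gene body (63968530 to 63969088) held 67.1 in ablation and 33.9 in control, a ratio of 1.98 (1.36 to 2.91), and was the second highest of the 88 peaks. A weak peak 11024 bp from the gene (63941803 to 63942052) held 17.2 in ablation and 31.8 in control, a log2 ratio of -0.85. Bambi, a receptor-like protein without a kinase domain, had 493 in ablation and 546 in control over 4 peaks, a ratio of 0.903 (0.808 to 1.01). The peak at its lower-coordinate end (chromosome 18, 3507131 to 3508363) made up most of that, with 408 in ablation and 451 in control. A summed ratio as low as that of Bambi was seen in 34.5% of all genes with a compared peak.

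The Id genes held the strongest of the 88 peaks, and Id1 had the lowest summed ratio of the 10 genes. Over their 23 compared peaks the median signal was 284 normalized reads and the median log2 ratio -0.19. The ratio was above 0 on the log2 scale in 6 of the 23. It was above 0 in 48.7% of all compared peaks and in 38.6% of those at or above the median signal. Those stronger peaks had a median signal of 175, below the 284 of the Id peaks, and in the highest signal decile the share was 14.4%. Id1 had a summed signal of 2707 normalized reads in ablation and 3519 in control over 5 peaks, a ratio of 0.769 (0.735 to 0.805). Id2 had 1596 in ablation and 1819 in control over 8 peaks, a ratio of 0.877 (0.825 to 0.933). Id3 had 2807 in ablation and 3111 in control over 10 peaks, a ratio of 0.902 (0.861 to 0.945). The interval of Id1 lay below those of Id2 and Id3. Among all genes with a compared peak, 5.32% had a ratio as low as that of Id1, 26.6% as that of Id2 and 34.2% as that of Id3. All 3 ratios were below 1 under each scaling tried and after a correction for signal strength, which left log2 ratios of -0.19 for Id1, -0.09 for Id2 and -0.02 for Id3.

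**Figure D2:**
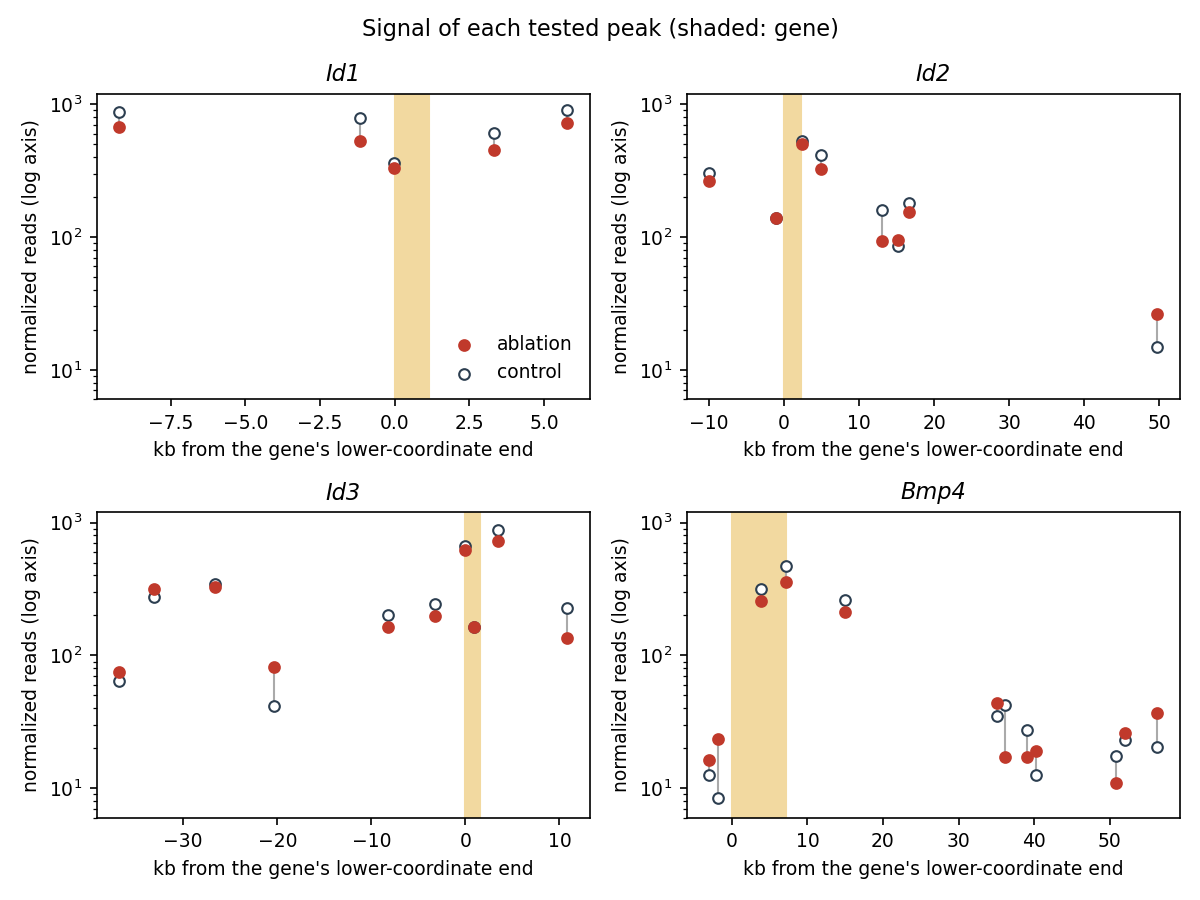
Normalized reads (log axis) of each compared peak of Id1, Id2, Id3 and Bmp4 in ablation (filled) and control (open), by distance in kb from the gene's lower-coordinate end, with the gene shaded. All 5 peaks of Id1 are lower in ablation, least at the gene itself, and the 3 strong peaks of Bmp4 are lower too.

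All 5 peaks of Id1, on chromosome 2, were lower in ablation, but not by the same ratio. The peak over the gene lay in the ninth decile of signal and the other 4 in the highest, where 14.4% of all compared peaks had ratios above 1. The peak over the gene (152735907 to 152736554) held 332 normalized reads in ablation and 359.9 in control, a ratio of 0.922 (0.804 to 1.06). The peak 825 bp from the gene's lower-coordinate end (152734748 to 152735426) held 529 in ablation and 788 in control, a ratio of 0.671 (0.606 to 0.742). Its interval, which holds counting error alone, lay wholly below that of the peak over the gene. The peak at 825 bp was picked after its value was seen. Of compared peaks in its signal decile, the highest, 0.906% had a ratio as low. The median log2 ratio of all compared peaks was -0.18 in that decile and -0.10 in the ninth. On the other side, the peak 1722 bp away (152739132 to 152740042) held 449.9 in ablation and 609 in control, a ratio of 0.739 (0.660 to 0.826). The strongest peak, 3990 bp away (152741400 to 152742681), held 725 in ablation and 898 in control, a ratio of 0.807 (0.738 to 0.883). The last (152726678 to 152727378) lay 8873 bp away on the lower-coordinate side. It held 672 in ablation and 864 in control, a ratio of 0.778 (0.709 to 0.853). For the peaks 1722, 3990 and 8873 bp away, 5.37%, 20.6% and 12.2% of compared peaks in the highest signal decile had ratios as low. Mouse Id1 is known to carry a BMP-responsive enhancer upstream of its start; whether any of these peaks holds it was not tested.

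The gene-start peaks of Id2 and Id3 had ratios near 1, and other peaks of Id3 differed both ways. For Id2, 2 of 8 peaks had ratios above 1, and the intervals of both included 1. In Id2 the peak at the start (chromosome 12, 25095764 to 25096540), its strongest, held 497 normalized reads in ablation and 524 in control, a ratio of 0.949 (0.848 to 1.06). The peak 10469 bp beyond it (25106561 to 25107160) held 93.4 in ablation and 159 in control, a ratio of 0.586 (0.459 to 0.743). The peak 2295 bp away held 325 in ablation and 414 in control, a ratio of 0.785 (0.687 to 0.897). The peak 12632 bp away held 95.2 in ablation and 85.4 in control, a ratio of 1.12 (0.850 to 1.46). The peak 669 bp from the other end of Id2 was level, with 138.8 in ablation and 139.0 in control, and a weak peak 47252 bp away held 26.3 in ablation and 14.8 in control, with an interval that includes 1 (0.978 to 3.27). In Id3 the gene-start peak (chromosome 4, 136143384 to 136144199) held 626 in ablation and 669.7 in control, a ratio of 0.935 (0.846 to 1.03). The strongest peak of Id3, 1117 bp beyond its other end (136146509 to 136148152), held 722 in ablation and 881 in control, a ratio of 0.819 (0.749 to 0.896). Of compared peaks in its signal decile, 24.6% had a ratio as low. A peak 8885 bp away on the same side (136154277 to 136155066) held 136 in ablation and 229 in control, a ratio of 0.595 (0.487 to 0.724). In the other direction, a peak 19964 bp away (136122988 to 136123858) held 81.6 in ablation and 41.6 in control, a ratio of 1.96 (1.40 to 2.77). Beyond it, the peaks 32698 and 36579 bp away had ratios of 1.14 (0.984 to 1.32) and 1.17 (0.860 to 1.60). The peaks 8885 and 19964 bp from Id3 thus differed in opposite directions, and the intervals of both lay apart from that of its gene start.

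Changes of 2-fold were few. A gain of 2-fold or more in ablation was seen in 1 of the 88 peaks (1.14%) and in 4.48% of all compared peaks. A loss of that size was seen in 2 of the 88 (2.27%) and in 1.88% of all compared peaks. These were the 2 peaks of Bmp4 and the 1 of Bmp7 named above, and the strongest of the 3 had a mean signal of 29.8 normalized reads. At 1.5-fold, 11 of the 88 (12.5%) were higher and 11 (12.5%) lower, against 13.0% and 7.47% of all compared peaks. A further 7 peaks fell below the signal minimum, of which 5 had a ratio above 1. One of them, in Bmp7 (172892248 to 172892408), held 16 reads in ablation and 6 in control, a ratio of 3.43 (1.27 to 10.7). The deposited table lists peaks in 3 alphabetical runs, a grouping whose meaning is not stated. All 8 compared peaks of these genes in the first run had ratios above 1, as did 90.8% of all peaks in that run, and all 3 in the second run had ratios below 1, where 18.4% of all peaks in that run had ratios above 1. The 2-fold higher Bmp4 peak was among those 8, and the 2-fold lower Bmp7 peak among those 3.

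**Figure D3:**
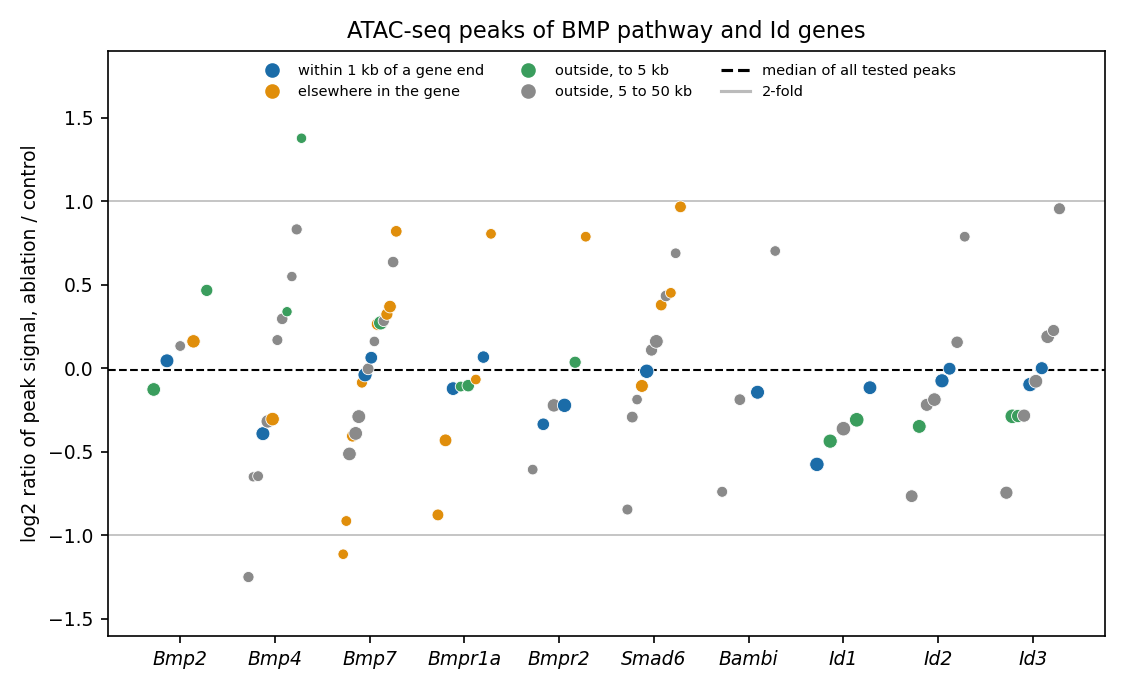
Log2 ratio of ablation to control of each of the 88 compared peaks, by gene, coloured by place and sized by signal, with the median of all compared peaks (dashed) and 2-fold lines. Peaks within 1 kb of a gene end lie between -0.58 and 0.07, while peaks elsewhere spread from -1.25 to 1.38.

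Place in the locus and signal strength went together. All 16 peaks within 1 kb of a gene end were within 1.5-fold, with a median signal of 402 normalized reads and a median log2 ratio of -0.09, where 91.9% of all such compared peaks were within 1.5-fold with a median of -0.07. The 19 peaks elsewhere in the genes had a median of 0.16 (0.01 for all such peaks), and the 40 peaks 5 to 50 kb away had a median of -0.13 (0.00 for all such peaks). Of the 19 peaks, 12 (63.2%) were within 1.5-fold, against 77.5% of all such peaks, and of the 40 peaks 26 (65.0%), against 76.5%.

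Over all compared peaks the log2 ratio declined with signal, from a median of 0.20 in the lowest decile of peaks to -0.18 in the highest. The peaks of these genes were stronger than most, with a median of 92.1 normalized reads against 66.1 for all compared peaks. In the highest signal decile the 14 peaks of these genes had a median of -0.18, the same as all peaks there. Above the median signal, 16 of 50 peaks (32.0%) had ratios above 1, against 38.6% of all peaks of that strength, and below it 21 of 38 (55.3%) against 58.8%. After a loess correction, which subtracts the trend, the median over the 88 peaks was -0.02. By role the corrected medians were 0.02 for ligand, -0.13 for receptor, 0.11 for inhibitor and -0.08 for Id genes, where the uncorrected ones were 0.06, -0.12, 0.05 and -0.19.

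**Figure D4:**
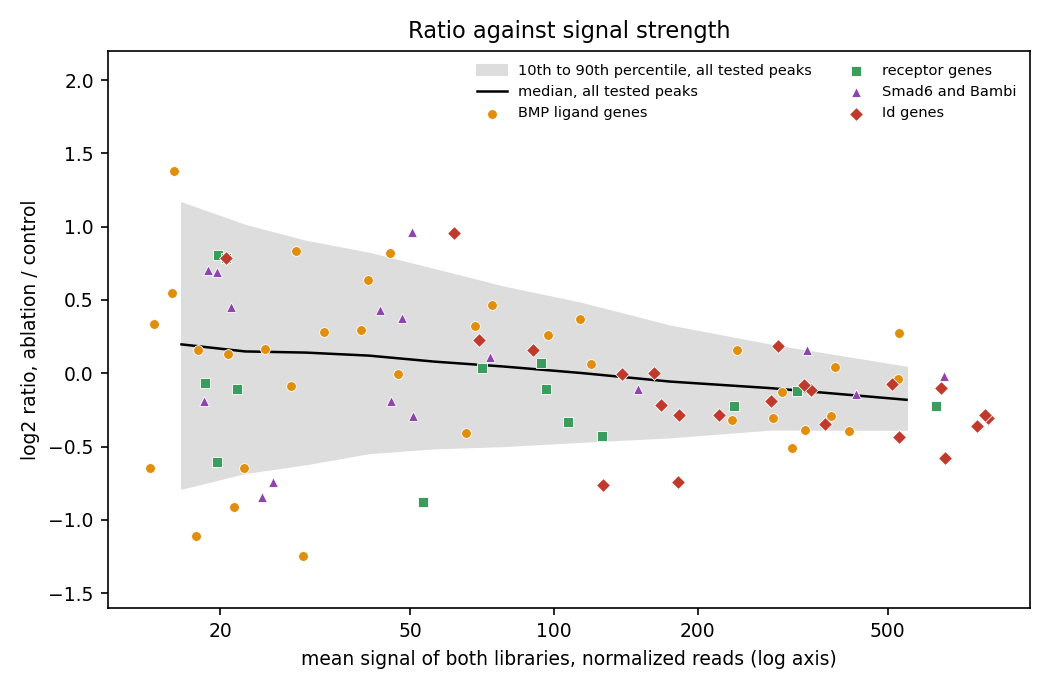
Log2 ratio of ablation to control against mean signal (log axis) for the 88 peaks, by role of the gene, over the median (line) and the 10th to 90th percentiles (grey) of all compared peaks in deciles of signal. Most points lie in the grey band, and peaks of Id genes at the strong end lie on both sides of the falling median.

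Other genes of the pathway were counted from lists. Of 43 genes, 42 had a compared peak, and 21 of the 42 had a log2 ratio of summed signal above 0, where 38.4% of all genes did. Of their 257 peaks, 6 (2.33%) had a gain of 2-fold or more and 0 had a loss of that size, beside the 4.48% and 1.88% of all compared peaks. Extracellular antagonists, which bind BMP or activin ligands outside the cell, had the highest list median, 0.28 over 11 genes, 8 of them above 0. Ratios are of normalized reads. Chrd, the gene of chordin, had 339 reads in ablation and 267 in control over 3 peaks, a ratio of 1.63 (1.39 to 1.92). Fst, the gene of follistatin, named after its value was seen, had 598 reads in ablation and 480 in control over 7 peaks, a ratio of 1.60 (1.42 to 1.81). Nog, the gene of noggin, likewise named after its value was seen, had 313 reads in ablation and 331 in control, a log2 ratio of normalized sums of 0.28. Fstl3, a relative of follistatin, was lowest, with a ratio of 0.766 (0.726 to 0.809) from 1 strong peak, followed by Twsg1 at 0.949 (0.892 to 1.01). The list median was 0.19 after the loess correction and -0.06 when each library was divided by its total over the table, a division that moves the median of all genes by -0.34.

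**Figure D5:**
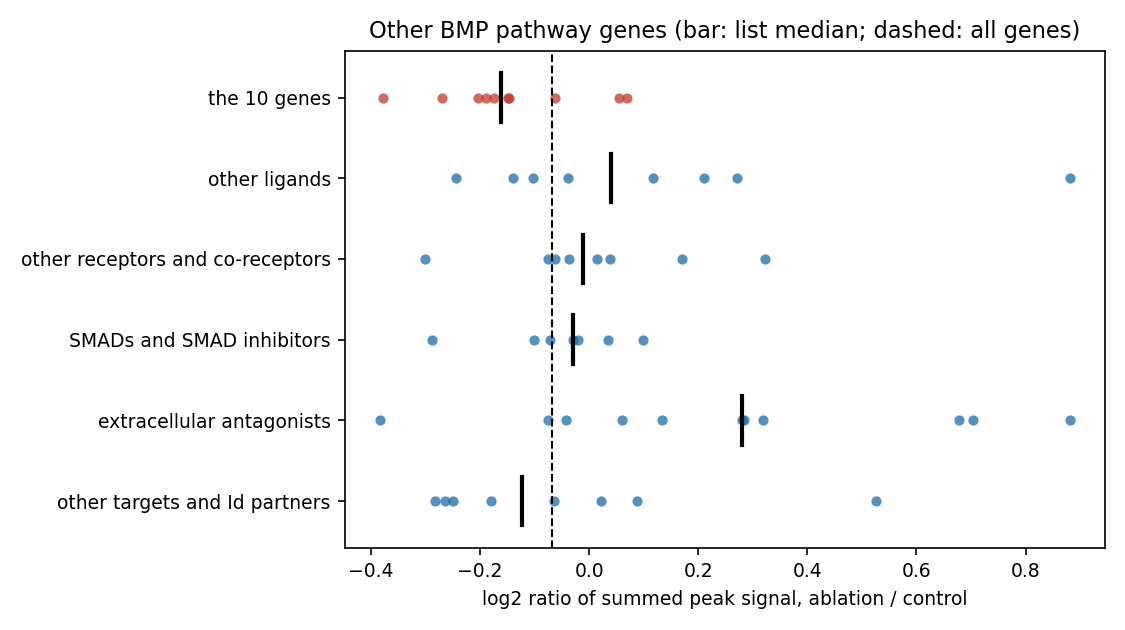
Log2 ratio of summed peak signal of ablation to control for each gene of the 10 and of 5 lists of other pathway genes, with list medians (bars) and the median of all genes (dashed). The extracellular antagonists have the highest median, 0.28, and the 10 genes the lowest, -0.16.

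The other lists had medians near that of all genes. Other ligands had a median of 0.04 over 8 genes, from Bmp5 at 0.88, with 1 peak of 21 reads in ablation and 14 in control, and Bmp8a at 0.27 to Bmp6 at -0.14 and Gdf6 at -0.24. Other receptors and co-receptors had a median of -0.01 over 8 genes. Bmpr1b, a type I receptor, had the highest ratio of that list, 1.25 (1.16 to 1.35), and the co-receptor Rgma followed at 1.13 (1.06 to 1.19). Acvrl1, a receptor best known in endothelium, was lowest at 0.811 (0.752 to 0.875), and Acvr2b stood at 0.949 (0.831 to 1.08). SMADs and their inhibitors had a median of -0.03 over 7 genes, with Smad4 and Smurf1 highest at log2 ratios of 0.10 and 0.04. Smad5, which carries the BMP signal, was lowest at 0.818 (0.757 to 0.885), and Smad9 next at a log2 ratio of -0.10. Other targets and Id partners had a median of -0.12 over 8 genes. Msx1, a homeobox target, was highest at 1.44 (1.24 to 1.68), followed by Tcf12 at 1.06 (0.976 to 1.16). The related Msx2 was lowest at 0.822 (0.764 to 0.884), and Tcf3, an E protein, was at 0.833 (0.772 to 0.899). Id4, the remaining Id gene, named after its value was seen, was at 0.841 (0.783 to 0.903).

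Markers of basal keratinocytes and of other cell types were counted beside these results. All 7 basal keratinocyte markers had compared peaks, with a summed signal of 13927 normalized reads in ablation and 14613 in control. That sum held opposed members, named after their values were seen, and 3 of the 7 had a log2 ratio above 0. Krt5 had a ratio of 1.16 (1.09 to 1.22), while Itga6 had 0.830 (0.792 to 0.870) and Col17a1 0.785 (0.741 to 0.833). Of 5 hair follicle stem and matrix markers all had peaks, with a sum of 6100.5 in ablation and 5856 in control and a median log2 ratio of 0.41. Nfatc1 held 4228 of that sum in ablation, with a ratio of 0.946 (0.910 to 0.982), while Sox9 had a ratio of 1.82 (1.62 to 2.05). Both were named after their values were seen. Of 7 fibroblast and dermal papilla markers 4 had compared peaks, with a sum of 674 in ablation and 639 in control, and Col1a2, Col3a1 and Lum had none. Suprabasal keratinocyte markers (4 of 5 with compared peaks, not Flg) summed to 2214 in ablation and 2569 in control. Endothelial markers (4 of 5, not Cdh5) summed to 3121 in ablation and 3285 in control, and melanocyte markers (4 of 5, not Tyr) to 3007 in ablation and 3307 in control. The endothelial sum held opposed members, named after their values were seen. Tie1 had a ratio of 2.36 (1.89 to 2.95) and Tek one of 0.646 (0.569 to 0.733). Langerhans and myeloid markers (3 of 4, not Itgax) summed to 114 in ablation and 94.6 in control, and T cell markers (3 of 4, not Cd3g) to 3194 in ablation and 3528 in control. The melanocyte and T cell sums held opposed members too, named after their values were seen. Sox10, the 1 melanocyte marker of 4 above 0 in log2 ratio, had a ratio of 1.32 (1.06 to 1.65), and Dct 0.763 (0.636 to 0.914). Cd3e, the 1 T cell marker of 3 above 0, had 1.35 (1.14 to 1.60), and Cd2 0.828 (0.778 to 0.880). Peaks near a gene do not show that it is expressed. The part of other cell types and of the mitochondrial share in the ratios above was not tested.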

How the data were processed

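ATAC-seq was deposited for 1 ablation and 1 control library. The submitters' processing notes name HTSeq, MACS2 2.1.0.20151222, Bowtie2 2.3.4.2, Trimmomatic and Picard, and the build mm10, without settings. The values the authors deposited are a normalized signal for each library in each merged peak. In each column the signal is a whole multiple of 1 step (0.907 in ablation, 0.706 in control), within 0.1 of a read for 99.998% of values in ablation and 100% in control, so whole reads were recovered. With 1 library per group no count test could be run on them. How peaks were selected and factors set is not stated. A count of 0, taken as 3 reads, allows 2.72 normalized reads in ablation and 2.12 in control.

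Columns were matched by name. The control column carries a number 2 that its sample title lacks, and the other says Exp and was taken as ablation, since 1 sample alone is not a control. Unused sample columns numbered 0. Of 116411 rows, repeats were merged to 84594 peaks, and 3 mitochondrial peaks were left out. Coordinates are as in the table, whose counting from 0 or 1 is not stated. Genes came from RefSeq GRCm38.p6 (21896 protein-coding genes), without strand except in the promoter table. Ratios used a pseudocount of 1 on peaks at or above the 10th percentile of mean signal. A gene's value is the ratio of summed signal.

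Every gene was named. Peaks were named for being the strongest of a gene, nearest a gene end, at least 2-fold changed, or among the 6 highest and 6 lowest ratios; the others described were chosen after their values were seen, as were genes marked so. In other pathway lists the 2 highest and 2 lowest genes were named. A result that names a withheld item is not reported here. Likeness of pattern to other genes was not computed over 2 libraries. The members and lists were chosen with earlier results of these data known. Steps were tested on simulated data. Computation used scipy 1.17.1 for intervals, statsmodels 0.14.6 for loess, matplotlib 3.10.9 for plots, and pandas 2.3.3 with numpy 2.4.6 under Python 3.11.15.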

Additional observations from a re-analysis of the deposited data

Results flagged for a closer look

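Mitochondrial peaks, which the comparisons leave out, held 31.2% of the reads in peaks in the ablation library and 7.31% in the control library, a signal outside the main measurement that was above its control level.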

How the results depend on the processing

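No paired analysis was possible because there was 1 library per group. The median log2 ratio over the compared peaks, -0.08 as reported, was 0.0072 with each library scaled to its nuclear total, -0.42 with the table total, -0.019 after loess correction and 0.013 when centred on strong gene-end peaks, a scaling added after seeing the data. The median of all compared peaks moved by 0.09, -0.34, 0.01 and 0.09 under the same 4 settings, which by construction shift or level all peaks. The count of genes above the all-gene median was 3, 4 with each gene valued by its strongest peak, and 6 with gene-end peaks alone, which leaves fewer peaks per gene. The count of peaks at least 2-fold higher was 1, and became 2 without the filter, 0 with the filter at the 25th percentile, 3 with the nuclear total, 0 with peaks overlapping the gene alone, 0 with gene-end peaks alone, 11 at 1.5-fold and 3 when centred on strong gene-end peaks. The count at least 2-fold lower was 2, and became 1 with a pseudocount of 5, 1 with the 25th percentile filter, 8 with the table total, 1 with overlapping peaks alone, 1 with peaks within 5 kb, 0 with gene-end peaks alone, 3 after loess correction and 11 at 1.5-fold. Over 14 alternatives the log2 ratio of Id1 lay between -0.72 and -0.12 and was below that of the median gene in all 14; Id2 was below it in 12 and Id3 in 13. Smad6 ranged from -0.27 to 0.17 and Bmp2 from -0.29 to 0.15, in each case above the median gene in all 14. No peaks overlapped each other, so taking the strongest of overlapping peaks changed nothing. With 1 library per group, depth limits weak peaks.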
